A study of Homo sapiens with 6 samples.

Results

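The HOX genes of SH-SY5Y, a human neuroblastoma line with a neuron-like form, were examined as 39 rows among the 61860 genes of the deposited table. Members were the genes named HOX with a cluster letter A to D and a paralogue number: 11 in HOXA on chromosome 7, 10 in HOXB on chromosome 17, 9 in HOXC on chromosome 12 and 9 in HOXD on chromosome 2. All cells had been differentiated with all-trans retinoic acid in 2% serum and made insulin resistant (IR) with insulin at 100 nM and D-glucose at 30 mM for 24 h. Of the 6 libraries, 3 came from such cells without further treatment (IR control) and 3 from cells that also received Oligonol, a preparation of lychee fruit polyphenols, at 500 ng/mL for 24 h (IR+Oligonol). Cells that had not been differentiated, or not made insulin resistant, were not analysed here, so the effect of retinoic acid on these genes was not tested. SH-SY5Y is a single tumour line, and the labels do not say whether replicates came from separate cultures. The p-values therefore reflect only how these samples spread, and that spread may be technical.

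HOX genes encode homeodomain transcription factors that give cells along the body axis their positional identity. Within a cluster the genes lie in the order of their paralogue numbers, and in the embryo low-numbered (anterior) genes act further forward, and are switched on earlier, than high-numbered (posterior) ones. Retinoic acid activates low-numbered genes through retinoic acid receptors, Polycomb complexes keep silent clusters closed and the trithorax/MLL proteins keep active ones open. Neuroblastoma arises from the sympathetic lineage of the trunk neural crest. Genes with the same number in different clusters are paralogues.

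Estimated counts summed to between 19457923 and 32209583 per library, and 18 to 21 HOX genes were above 0 in a library. Protein-coding genes held 6.243 to 6.829% of the counts in controls and 10.01 to 12.34% with Oligonol. On a scale fitted to the low values, all HOX genes together rested on 2137 to 2405 reads per library. The deposited counts behave as if already divided by transcript length, though how they were made is not stated. Levels, given as CPM after TMM scaling, are compared between genes on that assumption. The neuroblast markers PHOX2A (79.8 ± 10.4 CPM in controls, SD, n = 3) and GATA2 (64.3 ± 5.39) and the retinoic acid-binding protein gene CRABP2 (386 ± 76.7) were well expressed. The 16 markers of other cells together reached 25.7 to 32.2 CPM in controls and 15.7 to 19.3 with Oligonol. KRT18, PDGFRB and COL3A1 held most of this, ALB was at 0 in every library, and PTPRC, VWF, PECAM1 and COL1A2 stayed under 0.11 CPM; the part of these cells in the HOX values was not tested.

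HOX expression in the controls came almost wholly from HOXD and HOXC. HOXD held 77.9% ± 2.06 of HOX estimated counts, HOXC 20.9% ± 1.46, HOXB 1.04% ± 0.657 and HOXA 0.166% ± 0.108 (SD, n = 3). Of the 39 genes, 12 were listed at 0 in all 6 libraries, 7 of them in HOXA and 5 in HOXB, while every HOXC and HOXD gene was above 0 in at least 1 library. A mean of at least 1 CPM in controls was reached by 6 genes (HOXD9, HOXD8, HOXD3, HOXC4, HOXC5 and HOXD4) and a mean of 0.1 to 1 CPM by 6 more (HOXC6, HOXC9, HOXD10, HOXD1, HOXB7 and HOXD11). The other 15 had a control mean under 0.1 CPM and were above 0 in at least 1 of the 6 libraries. Among them, HOXA3, HOXA10 and HOXC11 were at 0 in all 3 controls.

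**Figure D1:**
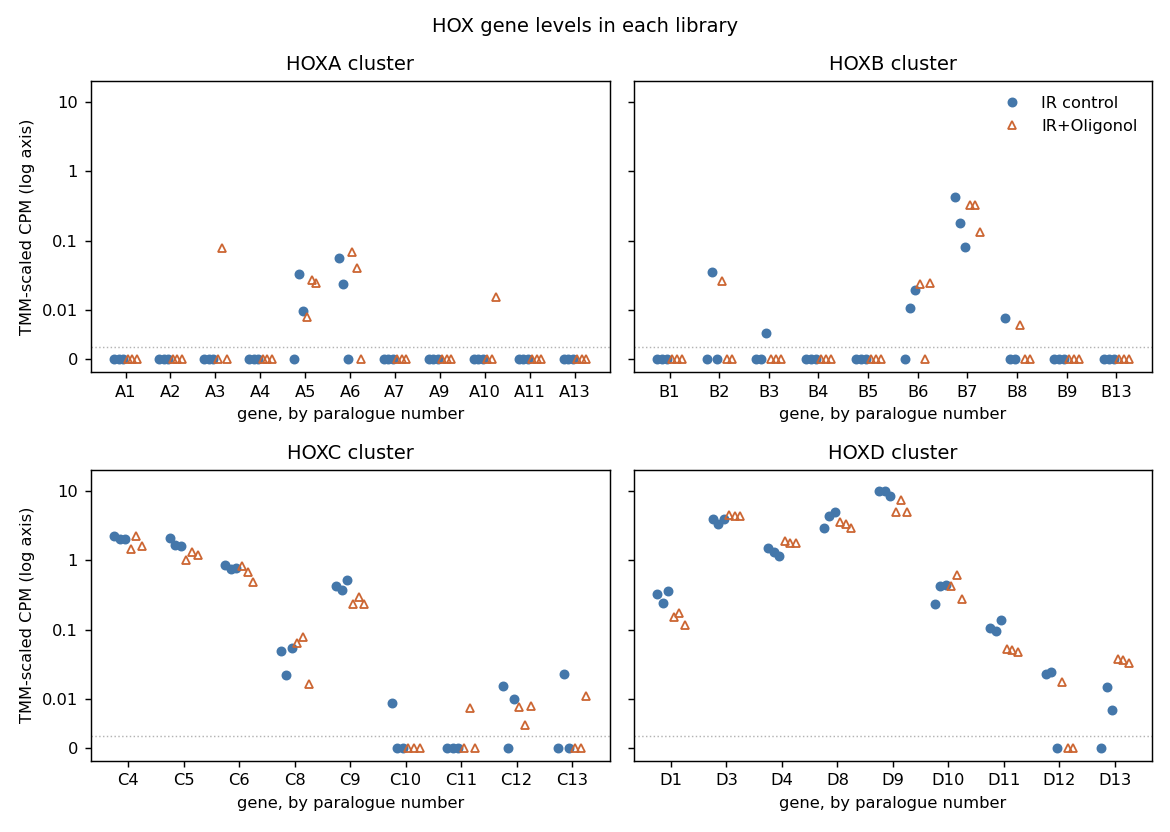
Level of each of the 39 HOX genes in each library, in TMM-scaled CPM on a log axis, by cluster and paralogue number; filled circles are the 3 IR control libraries, open triangles the 3 IR+Oligonol libraries, and points under the dotted line are values of 0. HOXD9 is highest, at up to 10 CPM, and no HOXA gene exceeds 0.0793 CPM.

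HOXD9 (ENSG00000128709, GRCh38.p13 chromosome 2, 176122719 to 176124937, plus strand), a posterior-group factor of the trunk and limb, was the most abundant HOX gene. Its level was 10.0, 9.76 and 8.27 CPM in controls 1 to 3 and 4.86, 7.26 and 4.94 in Oligonol libraries 1 to 3. Every Oligonol library lay below every control. Among 19862 protein-coding genes, HOXD9 ranked 1685 by mean level in controls, at 89.1 ± 19 CPM of the protein-coding total (SD, n = 3).

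HOXD8 (ENSG00000175879, chromosome 2, 176129694 to 176132695), a central-group gene next to HOXD9, had 2.91, 4.25 and 4.86 CPM in controls and 3.57, 3.26 and 2.87 with Oligonol. The groups overlapped, and control 1 lay among the Oligonol libraries. HOXD3 (ENSG00000128652, 176136612 to 176173102), an anterior-group gene, had 3.89, 3.33 and 3.95 CPM in controls and 4.41, 4.29 and 4.26 with Oligonol, so that each Oligonol library was slightly above the highest control. HOXD4 (ENSG00000170166, 176151550 to 176153226), known for its retinoic acid-responsive enhancer in the hindbrain, lies within the span of HOXD3. It had 1.48, 1.29 and 1.13 CPM in controls and 1.89, 1.76 and 1.77 with Oligonol, again with no overlap. HOXD10 (ENSG00000128710, 176108790 to 176119937), a posterior-group gene, had 0.234, 0.425 and 0.441 CPM in controls and 0.423, 0.613 and 0.276 with Oligonol, with overlapping groups.

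In HOXC the highest levels were at the low-numbered end. HOXC4 (ENSG00000198353, chromosome 12, 54016931 to 54056030) had 2.22, 2.02 and 2.01 CPM in controls and 1.47, 2.25 and 1.61 with Oligonol; Oligonol library 2 was the highest of all 6. HOXC5 (ENSG00000172789, 54033050 to 54035361), whose span lies inside that of HOXC4, had 2.11, 1.65 and 1.60 CPM in controls and 1.02, 1.33 and 1.17 with Oligonol, without overlap. HOXC6 (ENSG00000197757, 53990624 to 54030823) had 0.842, 0.754 and 0.770 CPM in controls and 0.825, 0.685 and 0.488 with Oligonol, with overlap. These genes belong to the central group, which patterns the neck and the forward part of the trunk.

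Along both expressed clusters the pattern was uneven. In HOXD the well expressed genes formed a block from HOXD3 to HOXD9. HOXD1, at the low-numbered end, had only 0.311 ± 0.0621 CPM in controls, and on the other side levels dropped to 0.367 ± 0.115 for HOXD10, 0.113 ± 0.0216 for HOXD11, 0.0159 ± 0.0138 for HOXD12 and 0.00730 ± 0.00744 for HOXD13 (SD, n = 3). In HOXC, HOXC8 (0.0420 ± 0.0169 CPM) was low between HOXC6 (0.789 ± 0.0468) and HOXC9 (0.444 ± 0.0763). Across the 9 genes of a cluster, Spearman's rho of log2 control level with paralogue number was -0.85 in HOXC and -0.60 in HOXD (Pearson's r -0.897 and -0.542, pseudocount 0.01 CPM). These are descriptions across neighbouring genes of the same libraries, which are not independent. In the order of control levels, HOXD8 and HOXD3 overlapped between libraries, as did HOXC4 and HOXC5, HOXC9 and HOXD10, and HOXD10 and HOXD1; HOXD9 stood above all others in each library.

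Paralogues with the same number differed widely. In group 9, HOXC9 had 0.444 CPM in controls against 9.35 ± 0.946 for HOXD9, and HOXA9 and HOXB9 were at 0 in all 6 libraries. In group 4, HOXC4 (2.09 ± 0.116) and HOXD4 (1.30 ± 0.177) were expressed, while HOXA4 and HOXB4 were at 0. In group 3, HOXA3 and HOXB3 were each above 0 in 1 library only, against 3.73 ± 0.342 CPM for HOXD3. For the 12 genes at 0, a count of 0 reads allows up to 3 reads, which is between 0.00758 CPM (HOXA13 in the most favourable library) and 0.12 CPM (HOXA7 in the least), for counting error only. HOXB7 was the one gene outside HOXC and HOXD above 0.1 CPM, with 0.432, 0.182 and 0.083 CPM in controls and 0.330, 0.333 and 0.134 with Oligonol. Its values rest on 1.97 to 9.94 reads per library.

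Reads of some neighbours cannot be assigned cleanly. Of the 31-base words in GENCODE 29 transcripts of HOXD9, 0.543% occur in another HOX gene and none in any other gene. HOXD3 shares 61.9% and HOXD4 78.2% of their words with the overlapping gene ENSG00000278500, which was not analysed here. HOXC5 shares 59.3% with ENSG00000273046, HOXC4 shares 16.9% with HOXC6, and HOXD10 shares 15.9% with HOXD11. HOXB7, which rests on few reads, shares words with many genes outside HOX, 3.96% on the same strand and 4.16% on the opposite strand. The values of these genes are therefore uncertain, and whether their counts trade reads was not tested. HOXD3 also shares 12.2% of its words with genes of the opposite strand, and HOXD1 shares 55.2%. The strand setting of the counting is not given in the sources, so the values of HOXD1 are uncertain too.

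The study's comparison asks how Oligonol altered gene expression in insulin-resistant cells. In edgeR's quasi-likelihood test, 8 HOX genes passed the filter on low counts and 31 did not. HOXD9 was lower with Oligonol (log2 fold change -0.72, SE 0.22, adjusted p = 0.0263) and was the only HOX gene called; 0 were higher. At an unadjusted p under 0.05, 1 was higher (HOXD4) and 2 were lower (HOXD9 and HOXC5). DESeq2 called 0 higher and 1 lower, and limma-voom 0 and 2. Among the 16574 genes tested, 26% were called higher, 23% lower and 48.9% in either direction. A count of 1 in 8 is below that background, and with so few genes nothing particular to HOX is read from it. The median log2 fold change was -0.23 over the 8 HOX genes and 0.15 over all tested genes.

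The other 7 did not reach an adjusted p of 0.05 in that edgeR fit. HOXC5 had a log2 fold change of -0.59 (SE 0.22, adjusted p = 0.0555) and HOXD4 of 0.47 (SE 0.20, adjusted p = 0.0809). HOXD3 had 0.21 (SE 0.16), HOXD8 -0.31 (SE 0.22), HOXC6 -0.23 (SE 0.29), HOXC4 -0.22 (SE 0.22) and HOXD10 0.19 (SE 0.41). HOXD3 and HOXD4 did not overlap between groups and were higher with Oligonol, and HOXD9 and HOXC5 did not overlap and were lower. Over all tested genes, 33.8% did not overlap and were higher, 28.8% did not overlap and were lower, and 62.6% did not overlap in either direction. HOXD10 reached the filter's minimum in 0 controls and 3 Oligonol libraries, and HOXC6 in 2 controls; the other 6 reached it in all libraries. In bulk RNA, fewer cells expressing a gene and less RNA of it per cell cannot be told apart. The HOXD9 call was lost without control 1 (adjusted p = 0.0631 by edgeR), control 2 (0.0759), Oligonol 1 (0.106) or Oligonol 3 (0.104).

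The make-up of HOX expression does not depend on how libraries are scaled. The shares of 4 genes did not overlap between the groups, but none could pass a test with 3 against 3. HOXD9 made up 39.8, 39.7 and 34.1% of HOX counts in controls and 24.9, 32.2 and 27.3% with Oligonol. HOXD3 made up 15.5, 13.6 and 16.3% in controls and 22.6, 19 and 23.6% with Oligonol, and HOXD4 5.88, 5.27 and 4.64% and then 9.68, 7.79 and 9.80%. In each of these the groups did not overlap, with HOXD9 the smaller share and HOXD3 and HOXD4 the larger in every Oligonol library. HOXC5 made up 7.22% ± 1.01 in controls and 5.88% ± 0.629 with Oligonol (SD, n = 3), also without overlap. HOXD8 was at 16.3% ± 4.33 and 16.2% ± 1.96, and HOXC4 at 8.45% ± 0.316 and 8.81% ± 1.21. Exact 2-sided permutation p was 0.1 for HOXD9, HOXD3, HOXD4 and HOXC5, the smallest that 3 against 3 can give, and 0.25 after adjustment over 15 shares. These shares are not corrected for transcript GC content, which among the 8 tested HOX genes is highest in HOXD9 (62.7%). With the GC trend removed, the log2 fold changes of these 4 genes were 0.22 (HOXD9), 0.96 (HOXD3), 1.19 (HOXD4) and 0.11 (HOXC5). Shares on that basis were not computed.

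**Figure D2:**
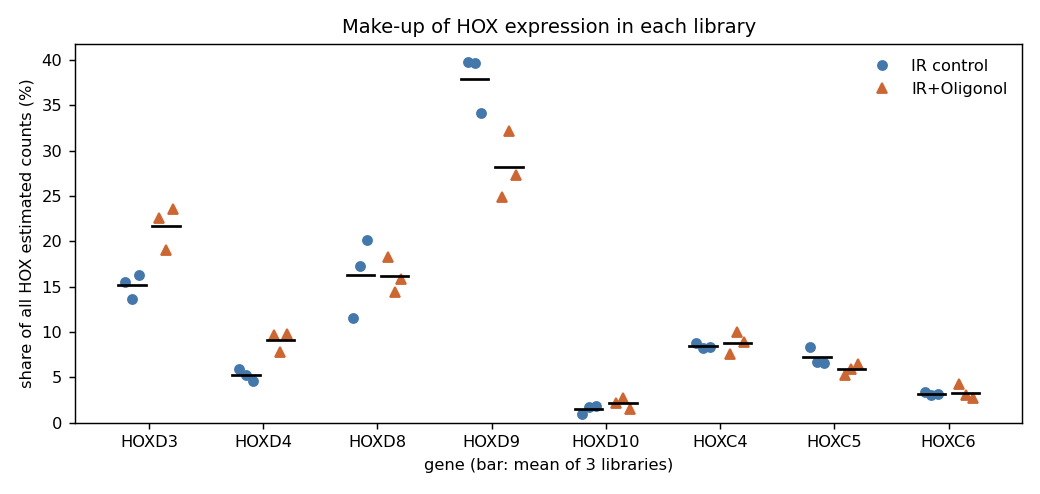
Share of all HOX estimated counts held by each tested HOX gene, in percent, in the 3 IR control libraries (circles) and 3 IR+Oligonol libraries (triangles), with a bar at each group's mean. HOXD9 goes from a mean share of 37.9 to 28.1%, while HOXD3 goes from 15.1 to 21.7% and HOXD4 from 5.26 to 9.09%.

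By class, anterior genes (numbers 1 to 3) held 16.4% ± 1.59 of HOX counts in controls and 22.6% ± 2.19 with Oligonol, central genes (4 to 8) 41.8% ± 1.65 and 45.3% ± 2.19, and posterior genes (9 to 13) 41.8% ± 2.67 and 32.1% ± 4.03 (SD, n = 3). The anterior and posterior shares did not overlap between groups (exact permutation p = 0.1, adjusted p = 0.25). Without HOXD9, the difference in the posterior share shrank from -9.72 to -0.775 percentage points, and that in the central share turned from 3.5 to -4.26. By cluster the make-up overlapped between groups: HOXD held 77.9% ± 2.06 and 78.5% ± 1.09, and HOXC 20.9% ± 1.46 and 19.6% ± 0.998.

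Ratios within a library restate these shares for single pairs of genes and are not further evidence. The ratio of HOXD9 to HOXD3 was 2.57, 2.93 and 2.09 in controls and 1.10, 1.69 and 1.16 with Oligonol. That of HOXD9 to HOXD4 was 6.78, 7.54 and 7.35 in controls and 2.57, 4.13 and 2.79 with Oligonol. In both, each control exceeded every Oligonol library, and Oligonol library 2 lay closest to the controls. HOXD9 to its neighbour HOXD8 gave 2.48 ± 0.884 and 1.77 ± 0.436, with overlap, and HOXC5 to HOXC4 gave 0.853 ± 0.0859 and 0.672 ± 0.0718, without (SD, n = 3). These 4 pairs were chosen after the values were seen. Exact permutation p was 0.1 for 3 of them and 0.3 for HOXD9 to HOXD8 (adjusted 0.133 and 0.3).

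Whether HOX expression as a whole was lower or higher depended on the scaling. After TMM, the 39 genes summed to 25.2, 24.6 and 24.2 CPM in controls and 19.5, 22.6 and 18.1 with Oligonol, each Oligonol library below every control (log2 ratio -0.31, SE 0.10, exact permutation p = 0.1, adjusted over 5 sums p = 0.167). HOXD summed to 19.2 ± 0.219 and 15.7 ± 1.59 CPM, and HOXC to 5.17 ± 0.448 and 3.94 ± 0.615 (SD, n = 3). As CPM of the protein-coding total, the same 39 genes summed to 272, 223 and 206 in controls and to 304, 277 and 265 with Oligonol, a log2 ratio of 0.28 with overlapping groups (exact permutation p = 0.2). With library totals as the scale the log2 ratio was 1.07, beside a median over all tested genes that moved from 0.15 to 1.53. HOXA (0.0412 ± 0.0271 and 0.0882 ± 0.0544 CPM) and HOXB (0.259 ± 0.168 and 0.293 ± 0.12) overlapped between groups.

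**Figure D3:**
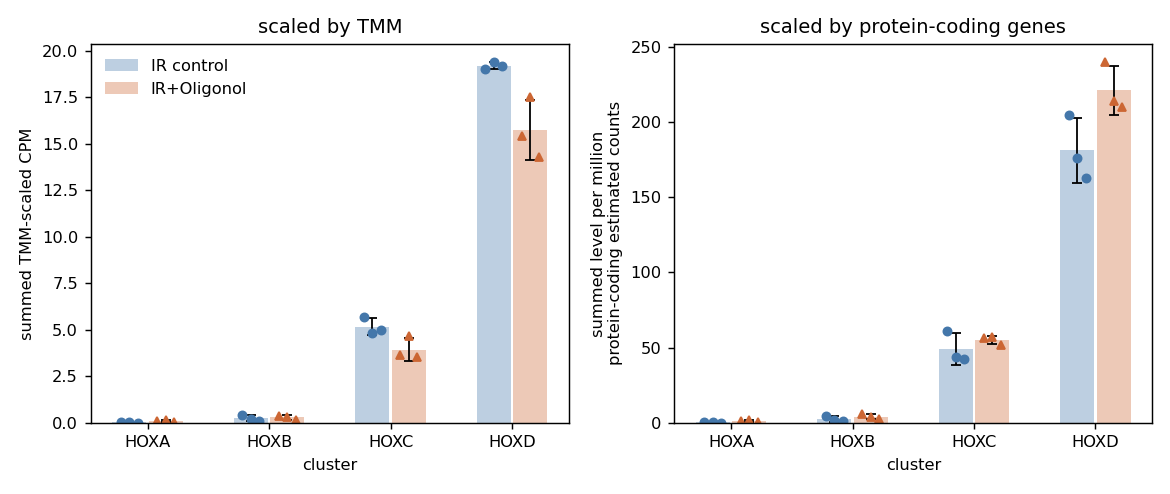
Summed level of each HOX cluster, as TMM-scaled CPM (left) and as CPM of the protein-coding total (right); bars are means of 3 libraries, error bars SD, and points single libraries. HOXD is lower with Oligonol on the left (19.2 and 15.7 CPM) and higher on the right (182 and 221 CPM).

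Direction of change ran with transcript GC content in this table: rho (Spearman) between GC and log2 fold change was -0.85 over the 11719 protein-coding genes tested, a description across genes that are not independent. HOX transcripts are GC-rich, with a median of 55.7% against 50.3% for tested protein-coding genes. Among the 8 tested HOX genes HOXD9 had the highest GC content (62.7%) and HOXD8 the lowest (49.9%). HOXD3 had 58.3%, HOXD4 57.9% and HOXC5 57.8%. With each library's GC trend removed, HOXD9 had a log2 fold change of 0.22 (SE 0.12) and was no longer called (adjusted p = 0.284 by edgeR). HOXD3 and HOXD4 were then called higher with Oligonol, at 0.96 (SE 0.17, adjusted p = 0.0336) and 1.19 (SE 0.22, adjusted p = 0.0372). These are 2 of 8 genes, where 2.89% of 16200 genes were called higher, 2.56% lower and 5.45% either way. The spans of HOXD3 and HOXD4 overlap, and both share most of their words with ENSG00000278500. The 2 calls may therefore not be separate, which was not tested, and nothing particular to HOX is read from the count. The remaining HOX genes were not called, with HOXD8 at -0.45 (adjusted p = 0.197), HOXD10 at 0.46, HOXC4 at 0.20, HOXC5 at 0.11 and HOXC6 at 0.08. The calls of HOXD3 and HOXD4 were lost without control 2 (adjusted p = 0.103 and 0.108), control 3 (0.0864 and 0.094), Oligonol 1 (0.108 and 0.127) or Oligonol 3 (0.131 and 0.137) in edgeR.

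**Figure D4:**
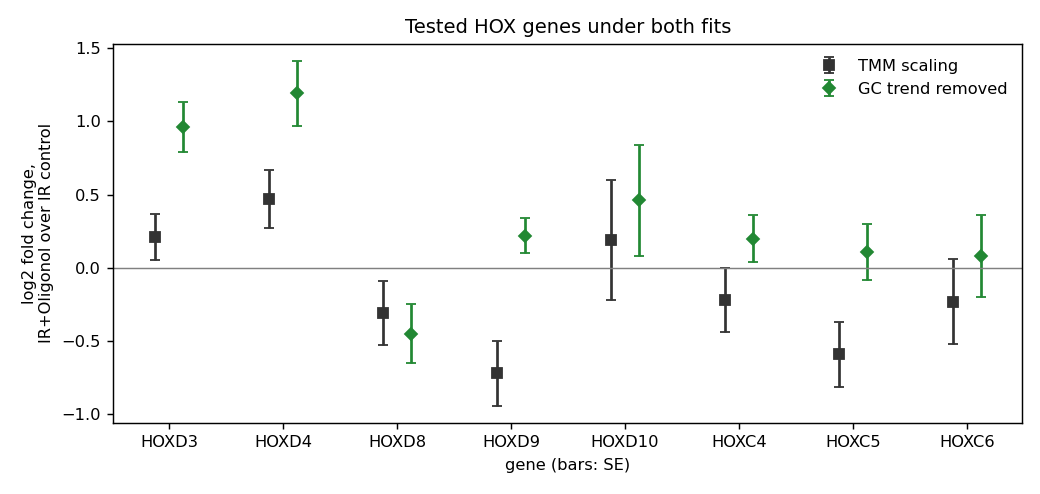
Log2 fold change of the 8 tested HOX genes, IR+Oligonol over IR control (3 libraries each), after TMM scaling (squares) and with each library's GC trend removed (diamonds); bars are SE. HOXD9 moves from -0.72 to 0.22, and HOXD3 and HOXD4 from 0.21 and 0.47 to 0.96 and 1.19.

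In both fits HOXD4 had the highest fold change of the 8 genes and HOXD3 the next. HOXD9 lay below HOXD8 in the first and above it in the second. The difference in fold change between HOXD9 and HOXD3 was not tested beyond the ratio given above.

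Of the 31 genes that did not pass the filter, 4 did not overlap between groups, 3 lower and 1 higher. Among all 45286 genes that did not pass it, 10.3% did not overlap and were higher, 2.57% lower and 12.9% either way, and nothing particular to HOX is read from the count. HOXC9 had 0.430, 0.376 and 0.527 CPM in controls and 0.232, 0.291 and 0.234 with Oligonol. HOXD1 had 0.328, 0.242 and 0.362 and then 0.154, 0.173 and 0.115, and HOXD11 0.105, 0.097 and 0.138 and then 0.0524, 0.0509 and 0.0481. In these 3 genes each Oligonol library lay below every control. Of the words of HOXD1, 55.2% also occur in genes of the opposite strand, so part of its reads would be ambiguous without strand. HOXD13, a gene of the most posterior group, had 0, 0.0149 and 0.00701 CPM in controls and 0.0379, 0.0362 and 0.0328 with Oligonol, at most 6.43 reads in a library. When estimated counts were converted to read equivalents, an alternative chosen after seeing the data, 10 HOX genes could be tested, 4 were lower and 0 higher by edgeR, where 24.4% of genes were called lower, 26.4% higher and 50.8% either way. HOXD1 (log2 fold change -1.16, adjusted p = 0.0139) and HOXC9 (-0.94, adjusted p = 0.0261) were among them, with HOXD9 (-0.80) and HOXC5 (-0.70); the GC trend was not removed in that fit.

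Promoter windows of 250 bases were available for 20 HOX genes, as 27 of 35116 RefSeq windows (GRCh38.p14). Their median ratio of observed to expected CpG was 0.888, against 0.558 over all windows. Most of the HOX windows belong to HOXA, and HOXD9 has none. HOXB has only that of HOXB1, and HOXC only that shared by HOXC4 and HOXC5. The values over HOX windows therefore do not describe the expressed HOX genes in particular. The windows of HOXD3 (chr2:176157057-176157306, plus strand) and HOXD4 (chr2:176151300-176151549, plus strand) are shown because these genes were the ones called higher with the GC trend removed. Capitals mark CCAAT on either strand, read as ATTGG on the strand shown.
HOXD3: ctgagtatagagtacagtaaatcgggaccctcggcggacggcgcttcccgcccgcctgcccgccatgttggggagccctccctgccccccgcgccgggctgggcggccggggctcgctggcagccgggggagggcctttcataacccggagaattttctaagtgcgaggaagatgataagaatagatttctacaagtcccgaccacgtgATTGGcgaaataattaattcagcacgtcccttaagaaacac
HOXD4: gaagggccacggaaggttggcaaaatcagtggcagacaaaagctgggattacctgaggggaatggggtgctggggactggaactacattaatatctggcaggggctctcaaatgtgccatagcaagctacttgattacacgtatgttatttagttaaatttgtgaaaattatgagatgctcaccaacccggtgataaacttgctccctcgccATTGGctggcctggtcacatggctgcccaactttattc
CCAAT was found on either strand in 66.7% of HOX windows and 32% of all windows, and TAAT, the core letters of many homeodomain sites, in 74.1 and 47.4%. The window of HOXD3 is CpG-rich (observed over expected 0.959) and that of HOXD4 is not (0.287). The retinoic acid receptor half-site AGGTCA was in 0 of 27 HOX windows and 12.1% of all windows, and AGTTCA in 18.5 and 8.8%. TATAAA was in 18.5 and 10.7%, GGGCGG in 48.1 and 42.6%, CACGTG in 29.6 and 6.34%, TGATNNAT in 11.1 and 6.47%, and TTTATGG in 3.7 and 2.3%. Both direct repeats of these half-sites with a spacer of 5 letters, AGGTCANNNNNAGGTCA and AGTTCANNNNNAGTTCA, and a looser form of them were in none of the HOX windows and in at most 0.074% of all windows. A match describes letters and not a site, and the 27 windows are not independent: HOXC4 and HOXC5 have the same window, counted for each, and HOXA3 has 7.

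Among non-coding RNAs of the clusters, those of HOXD were the most abundant. Of 24 listed, 14 were at 0 in all 6 libraries, among them HOTAIR, HOTTIP and HOTAIRM1. Of the 4 tested, 1 was called, lower, where 23% of all tested genes were called lower and 48.9% in either direction. HOXD-AS2, read from the strand opposite to HOXD3, had 4.92, 6.02 and 4.96 CPM in controls and 2.11, 3.32 and 2.68 with Oligonol, each Oligonol library below every control. It was called lower by edgeR (log2 fold change -0.98, SE 0.21, adjusted p = 0.0107), and with the GC trend removed it had -0.05 (its GC content is 61.9%). It shares words with HOXD3 amounting to 10.0% of those of HOXD3, so part of its reads would be ambiguous without strand. HAGLR, read from the opposite strand between HOXD3 and HOXD1, had 1.51 ± 0.278 and 1.80 ± 0.160 CPM (SD, n = 3) with overlapping groups. The microRNA genes MIR10B and MIR615, short RNAs that rest on few reads, ranged from 0 to 3.04 and 0 to 2.11 CPM, with overlap.

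The TALE homeodomain proteins, which bind DNA together with HOX proteins, were expressed. All 9 were tested, 3 were higher and 2 lower with Oligonol, close to the 48.9% of all tested genes called in either direction. MEIS1 had 3.88 ± 1.19 CPM in controls and 8.35 ± 1.29 with Oligonol (log2 fold change 1.11, adjusted p = 0.0117 by edgeR), and MEIS3 26.1 ± 3.39 and 10.4 ± 2.64 (-1.34, adjusted p = 0.00833; SD, n = 3, for each). With the GC trend removed, MEIS1 had 0.53 (adjusted p = 0.146) and MEIS3 -0.38 (adjusted p = 0.12), and neither was called.

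The counts of regulators of HOX chromatin stand against the same background of 26% higher, 23% lower and 48.9% either way among all tested genes; PRC1 and trithorax counts were close to its total. Of 11 tested members of the Polycomb repressive complex PRC2, 7 were higher and 2 lower by edgeR. The median of their log2 fold changes was 1.08, against 0.15 over all genes, and 0.29 against 0.03 with the GC trend removed. Its methyltransferase gene EZH2 had 1.44 ± 0.182 CPM in controls and 4.42 ± 0.929 with Oligonol (log2 fold change 1.64, adjusted p = 0.0062 by edgeR) and PHF1, an accessory subunit, had -1.25 (adjusted p = 0.00774). Of 19 PRC1 members 3 were higher and 6 lower, among them RYBP, which was higher (1.85, adjusted p = 0.00657). Of 18 trithorax and MLL genes 8 were higher and 1 lower; the largest rise was that of the elongation factor AFF4 (1.60, adjusted p = 0.00601). With the GC trend removed, 1 PRC2 member was higher (EZH2, 0.94, adjusted p = 0.0336), 1 PRC1 member was higher (RYBP, 0.89) and 1 lower (YAF2, -0.86), and 1 trithorax gene was higher (AFF4, 1.01).

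Retinoic acid response genes, the upstream pathway, gave 1 higher and 9 lower of 13 tested by edgeR, beside 26% higher and 23% lower among all tested genes. The receptor gene RARB rose (log2 fold change 0.96, adjusted p = 0.00895), and RARG (-1.10, adjusted p = 0.0113) and RXRB (-1.08, adjusted p = 0.0141), also receptor genes, fell. With the GC trend removed 1 was called, CYP26A1, which degrades retinoic acid (63.7 ± 11.2 and 36.9 ± 2.60 CPM, log2 fold change -0.91, adjusted p = 0.0363). Of 12 genes that flank the clusters 5 were tested, 2 higher and 2 lower, and none was called with the GC trend removed. Other homeobox genes of the same class were low, and the 21 listed together reached 1.13 to 2.07 CPM in controls. Of these, 8 were at 0 in all libraries, and only DLX6 was tested, which was not called. DLX6 (0.663 CPM) and MSX2 (0.558 CPM) had control means above that of HOXC9 (0.444 CPM). Of the factors of axial and sympathetic identity outside HOX, 6 were tested and 1 was called, lower (HAND1, -0.77, adjusted p = 0.0208), and of 15 tested neuroblast markers 1 was higher and 4 lower. With the GC trend removed HAND1 had -0.12 (adjusted p = 0.509), and no gene of either list was called. These counts, too, are to be read against the shares of all genes given above. Of 6 tested markers of other cells 4 were lower, and 1 with the GC trend removed (COL3A1, -1.09).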

How the data were processed

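Total RNA of 6 SH-SY5Y samples was sequenced at 100 nt from both ends after stranded library preparation, per the labels. Kallisto 0.46.1, FastQC, edgeR and GRCh38.p13 are named in the submitters' processing notes; the step from transcripts to genes is not given in the sources. The authors deposited estimated counts and a scaled signal for each library. The signal proved to be a constant multiple of the count in each library (relative spread at most 1.52e-05) and was not used further. Rounded estimated counts were filtered with filterByExpr, scaled by TMM and tested over all genes by edgeR 4.0.16's robust quasi-likelihood test (2-sided, Benjamini-Hochberg, threshold 0.05) in R 4.3.3, which was tested on simulated data. Alternatives were RLE, upper quartile and library-total scaling, TMM on protein-coding genes, DESeq2 1.42.0, limma-voom (3.58.1), other filters, each library's trend with transcript GC removed as an offset (natural spline, 5 df), a replicate block, and each library left out. Lengths, GC and shared 31-base words came from GENCODE 29, to which 58308 identifiers matched; promoter windows came from RefSeq.

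The members, lists and the GC alternative were chosen with earlier results of these data known. All 39 HOX genes were named, and up to 4 genes of smallest p per list. The conversion to read equivalents (count times effective length over a fitted scale, 0.312 to 0.546 counts per read of 1000 nt) was added after the files were seen. Its first criterion gave a lower scale in some libraries and was changed, and the share of whole numbers is no independent check of it. Fits that left a library out first filtered the genes again; they were replaced by fits on the genes of the full fit, and both are given. Gene ratios, shares of single genes, motifs and the sequences shown were chosen after values were seen. Some list members and sequences are not reported here.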

Additional observations from a re-analysis of the deposited data

How the results depend on the processing

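The HOXD9 call and the direction of the summed HOX level depended on the scaling. Summed log2 ratios turned from -0.31 to 1.07 for all HOX, from -0.40 to 0.97 for HOXC and from -0.29 to 1.08 for HOXD with library totals, which also moved HOXB from 0.30 to 1.67. With protein-coding genes as the scale they were 0.28, 0.18 and 0.29 for all HOX, HOXC and HOXD. Without HOXD9, the share differences were -6.4 points for HOXC, 5.78 for HOXD, -4.26 for central and -0.775 for posterior genes. Of HOX genes called higher, 0 in the full edgeR fit, there were 7 with library totals and 2 each with at least 10 counts in all libraries and with the GC trend removed. Of those called lower, 1 in the full fit, there were 2 with RLE and with limma-voom, 4 with read equivalents, and 0 with library totals, no filter, at least 10 counts in all libraries, or the GC trend removed. Over all tested genes, 11330 of 16574 were called either way with library totals, and 6696 of 11178 with at least 10 counts. There were 8076 with RLE, 8004 with limma-voom, 9389 of 18495 with read equivalents and 883 of 16200 without the GC trend. Nothing particular to HOX is read from these counts. HOXD9 had -0.71 (adjusted p = 0.0954, edgeR) with no filter, -0.49 (adjusted p = 0.053) with at least 10 counts, and 0.22 without the GC trend. With library totals it was called in the opposite direction (0.60, adjusted p = 0.0397). With at least 10 counts in all libraries, HOXD3 (0.46, adjusted p = 0.0477) and HOXD4 (0.73, adjusted p = 0.0128) were called higher. Reversed with library totals were also HOXC5 (0.75), HOXD8 (1.12), HOXC6 (1.15) and HOXC4 (1.11); without the GC trend HOXC5 (0.11), HOXC6 (0.08) and HOXC4 (0.20); and with at least 10 counts HOXC6 (0.03) and HOXC4 (0.01).

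Same-numbered libraries did not deviate together in a regular way (r 0.161, -0.153 and -0.226). With 3 libraries per group, centred on their group means, these values cannot decide whether the numbers pair the samples. The replicate block left 1 HOX gene lower. With the block and the GC trend removed, 0 of all genes and 0 HOX genes were called by edgeR (3993 genes at an unadjusted p under 0.05), and HOXD9 had 0.23, HOXC5 0.12, HOXC6 0.05 and HOXC4 0.20. Over all genes, 8112 were called in the full fit, 4567 with no filter and 883 without the GC trend.

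Leaving out each library gave 3439 to 8921 calls on the genes of the full fit, 782 to 9492 with genes filtered again and 0 to 1306 without the GC trend. HOX genes called lower numbered 0 to 2, 0 to 3 and 0 in these, and called higher 0, 0 and 0 to 2. In the same order, log2 fold changes ranged from -0.94 to -0.61, -1.13 to -0.61 and 0.13 to 0.30 for HOXD9. They ranged from -0.69 to -0.45, -0.87 to -0.48 and 0.01 to 0.28 for HOXC5, from -0.41 to -0.04, -0.45 to -0.04 and -0.17 to 0.26 for HOXC6, and from -0.43 to -0.09, -0.61 to -0.09 and 0.10 to 0.28 for HOXC4. HOXD10 gave -0.11 to 0.43, -0.29 to 0.43 and 0.23 to 0.69. HOXD3 and HOXD4 stayed above 0 and HOXD8 below 0 in every one of these fits. Fits on filtered-again genes lost the HOXD9 call without each library but Oligonol 2 (adjusted p = 0.00305, edgeR).

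The causes of these differences were not tested. Removing the GC trend takes away real changes that run with GC as well as technical ones, and genes under 0.1 CPM rest on a few reads.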
